A study of Mus musculus with 10 samples.

Results

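A set of 5 genes of zinc and metal handling was followed in the mouse retina after light damage: the metallothionein genes *Mt1*, *Mt2* and *Mt3*, the metal-sensing transcription factor *Mtf1* and the zinc exporter *Slc30a1*. They were chosen by symbol, with earlier results of these data known, and all 5 were found among the 54532 genes of the expression table. The retinas came from BALB/c mice of 2 months, an albino strain. All mice spent 12 h in the dark and were then kept for 1 day either at 200 lux (normal light, NL, 5 retinas) or at 15000 lux (light damage, LD, 5 retinas). The labels name no deleted gene and no drug in either group, and dark adaptation, strain and age were shared. Levels are given in FPKM, fragments scaled to the length of the gene and the depth of the library. The NL libraries held 21343389 to 26832535 reads and the LD libraries 18965090 to 23378090.

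Metallothioneins are small cysteine-rich proteins that bind zinc and copper and can take up reactive oxygen. When free zinc in a cell rises, MTF-1, the product of *Mtf1*, enters the nucleus and binds metal response elements (MREs) before the metallothionein genes and *Slc30a1*, whose product ZnT1 carries zinc out of the cell. *Mt1* and *Mt2* are also known to be induced by glucocorticoids, by oxidants and by cytokines that act through STAT3, whereas *Mt3* is a form of nervous tissue that responds little to metals. In the retina, zinc is abundant in photoreceptors and pigment epithelium, and metallothioneins have been described in Müller glia.

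*Mt1* and *Mt2* rose after light damage, *Mt1* by 3.35-fold and *Mt2* by 7.61-fold, and every LD retina lay above every NL retina for both. *Mt3*, *Mtf1* and *Slc30a1* passed neither the limit on the adjusted p nor that on the fold change. A gene was called changed at an adjusted p under 0.01 with a change of over 2-fold (limma on log2(FPKM + 0.1), Benjamini-Hochberg adjustment over 24508 genes). Over all genes tested, 6.51% were called, 4.13% as higher and 2.37% as lower after LD. Of the 5 genes, 2 were called higher and 0 lower.

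The stretches before the transcript starts of *Mt1*, *Mt2* and *Slc30a1* are shown because these are the genes through which MTF-1 is best known to act. They are the 250 bases that end just before the RefSeq start, from the mouse genome GRCm38.p6, plus strand, 5′ to 3′, at chr8:94178839-94179088 for *Mt1*, chr8:94172368-94172617 for *Mt2* and chr1:191906531-191906780 for *Slc30a1*. Capitals mark matches to the MRE core, written as TGCACNC or TGCGCNC and searched on both strands.

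Mt1: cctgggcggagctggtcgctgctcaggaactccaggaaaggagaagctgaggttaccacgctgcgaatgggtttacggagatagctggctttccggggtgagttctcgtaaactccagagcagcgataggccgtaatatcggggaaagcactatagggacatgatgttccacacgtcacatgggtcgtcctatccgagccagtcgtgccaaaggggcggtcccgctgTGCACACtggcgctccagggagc
Mt2: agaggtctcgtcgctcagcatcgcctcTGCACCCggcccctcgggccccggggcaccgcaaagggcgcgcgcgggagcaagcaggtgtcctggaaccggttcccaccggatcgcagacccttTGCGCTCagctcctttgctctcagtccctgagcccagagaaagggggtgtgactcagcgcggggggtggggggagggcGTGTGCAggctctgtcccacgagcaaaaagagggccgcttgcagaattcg
Slc30a1: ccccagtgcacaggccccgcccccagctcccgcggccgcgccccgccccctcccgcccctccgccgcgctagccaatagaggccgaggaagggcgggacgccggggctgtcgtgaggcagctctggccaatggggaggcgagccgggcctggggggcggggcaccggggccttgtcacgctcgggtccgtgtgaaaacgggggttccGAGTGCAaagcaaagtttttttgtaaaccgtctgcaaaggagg

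The search covered 250 bases before to 50 after each start, and all 5 genes were matched in the RefSeq table. *Mt2* held 4 matches to the MRE core, at −223 to −217, −128 to −122, −50 to −44 and 5 to 11, counted from 1 at the start. *Mt1* held 3, at −23 to −17, 3 to 9 and 21 to 27, and *Slc30a1* held 2, at −43 to −37 and 31 to 37. *Mt3* held 1, at 28 to 34, and *Mtf1* held 0. Among 32851 such windows of all genes, 25.7% had at least 1 match, 7.11% at least 2 and 1.97% at least 3. The core of the antioxidant response element, TGACNNNGC, was matched once in *Mt2*, at −79 to −71, and once in *Slc30a1*, at −82 to −74, against 12.4% of all windows with a match. The STAT core TTCNNNGAA, found in 8.30% of all windows, had no match in the windows of the 5 genes. A match is a run of letters and says nothing of binding, and starts other than the RefSeq start were not searched. The GENCODE annotation has other transcripts that start past the end of these windows. They start at chr8:94179211 and chr8:94179241 for *Mt1*, chr8:94172860 for *Mt2* and chr8:94152746 for *Mt3*. For *Mtf1*, the transcript with the most exons starts before the window, at chr4:124802104. The counts, positions and absences, also that of the antioxidant core in *Mt1*, therefore hold for these windows only.

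**Figure D1:**
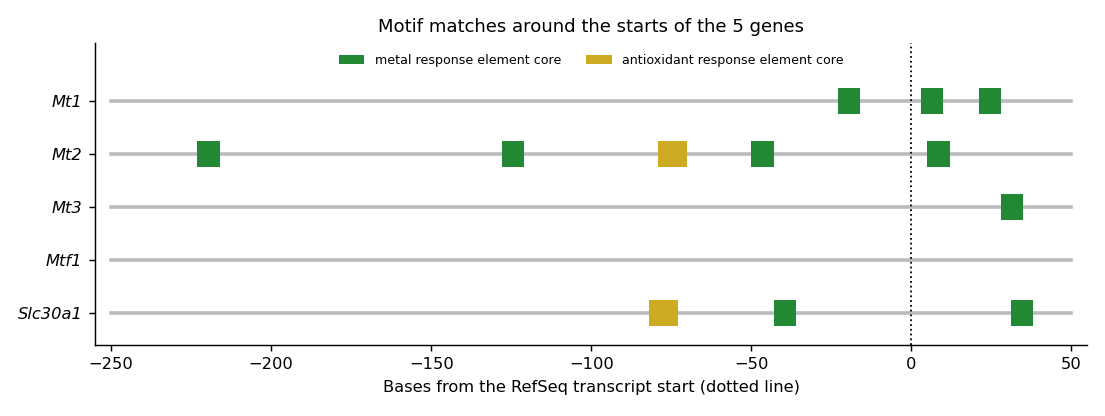
Motif matches in the window from 250 bases before to 50 bases after the RefSeq start of each of the 5 genes; the x axis is the distance from the start in bases, green bars are MRE cores and yellow bars antioxidant response element cores on either strand. *Mt2* has 4 MRE matches, *Mt1* 3, *Slc30a1* 2, *Mt3* 1 and *Mtf1* 0.

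*Mt1* (ENSMUSG00000031765, chr8:94179082-94180327, plus strand) encodes the widely expressed metallothionein-1. Its levels in retinas NL-1, NL-4, NL-5, NL-7 and NL-8 were 38.2, 38.5, 56.3, 53.6 and 46.4 FPKM, and in LD-1, LD-4, LD-6, LD-7 and LD-8 they were 119.5, 189.6, 198, 121 and 162 FPKM. The lowest LD retina, LD-1, was above the highest NL retina, NL-5, and among the LD retinas LD-1 and LD-7 were low and LD-4 and LD-6 high. The mean was 46.6 ± 8.37 FPKM in NL and 158 ± 36.8 FPKM in LD (SD, n = 5 each), resting on 1017 to 1490 reads of an NL library and 3439 to 5508 of an LD library. The log2 fold change was 1.75 (SE 0.17, 95% interval 1.36 to 2.13, limma adjusted p = 3.90e-05), which placed *Mt1* at percentile 97.8 of the fold changes of all genes tested. In the ranking of levels, *Mt1* went from percentile 96.6 in NL to 99.5 in LD. An exact two-sided permutation test of the 5 against 5 retinas gave p = 0.00794, the smallest this design allows.

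*Mt2* (ENSMUSG00000031762, chr8:94172664-94173568, plus strand) encodes the closely related metallothionein-2. In the same order, its levels were 1.43, 1.36, 2.18, 2.16 and 1.05 FPKM in the NL retinas and 7.46, 15.9, 18.0, 10.5 and 14.6 FPKM in the LD retinas. The groups did not overlap, and the LD retinas stood in the same order as for *Mt1*, with LD-6 highest and LD-1 lowest. The mean went from 1.64 ± 0.507 FPKM to 13.3 ± 4.26 FPKM (SD, n = 5 each), from percentile 44.4 to percentile 82.4 of the levels of all genes tested. The log2 fold change was 2.93 (SE 0.26, 95% interval 2.34 to 3.51, limma adjusted p = 2.13e-05), at percentile 99.4 of all genes, and the exact permutation p was 0.00794. On the linear scale the interval was 5.07- to 11.4-fold for *Mt2* and 2.57- to 4.37-fold for *Mt1*. The NL levels of *Mt2* rested on 16 to 27 reads per retina and the LD levels on 107 to 237. The gene overlaps the antisense transcript *Gm45774* by 749 bases, which had 4 to 11 reads in NL and 11 to 21 in LD (log2 fold change 0.83, limma adjusted p = 0.0106), and since the use of strand in the counting is not given in the sources used here, reads of the overlap cannot be told apart.

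*Mt3* (ENSMUSG00000031760, chr8:94152607-94154146, plus strand) encodes metallothionein-3, which was first known as a growth inhibitory factor of brain. Its levels were 5.66, 8.43, 13.4, 16.0 and 20.4 FPKM in the NL retinas and 6.31, 20.1, 19.9, 8.36 and 12.9 FPKM in the LD retinas, in the order above. The groups overlapped over nearly their whole ranges, with NL-1 and LD-1 lowest and NL-8, LD-4 and LD-6 highest. The spread within a group was wide, 3.60-fold from the lowest to the highest NL retina and 3.18-fold among LD retinas, with coefficients of variation of 46.1% and 47.2%. The means were 12.8 ± 5.88 and 13.5 ± 6.38 FPKM (SD, n = 5 each), with a log2 fold change of 0.08 (SE 0.41, limma adjusted p = 0.915). Its 95% interval of 0.564- to 1.98-fold leaves out a change of the size seen in *Mt1* but not a smaller rise or fall. The sign of this small difference turned when LD-4, LD-6, NL-1 or NL-4 was left out, with log2 values from −0.18 to −0.04. Among the LD retinas, LD-4, LD-6 and LD-8 were higher than LD-1 and LD-7 for *Mt1*, *Mt2* and *Mt3* alike.

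*Mt4*, the form of stratified epithelia, lies in the same cluster at chr8:94137197-94139031. It had 0 reads in the 5 NL retinas and in LD-4, LD-6 and LD-7, 1 read in LD-1 and 2 in LD-8. These counts are at or under a floor of 3 reads per retina, so that no fold change was computed. The 4 genes span 43.1 kb. The longest run of bases that the exons of *Mt1*, *Mt2* and *Mt3* share with each other is 27 bases, between *Mt1* and *Mt3*, and 20 bases for the other pairs, against reads of 150 bases. Of the 3 protein-coding genes within 100 kb of the cluster, 0 were called. The log2 fold change was 0.00 for *Ogfod1* (limma adjusted p = 0.959), −0.62 for *Bbs2*, a gene of the cilium (0.0311), and 0.18 for *Nup93*, a gene of the nuclear pore (0.00906).

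**Figure D2:**
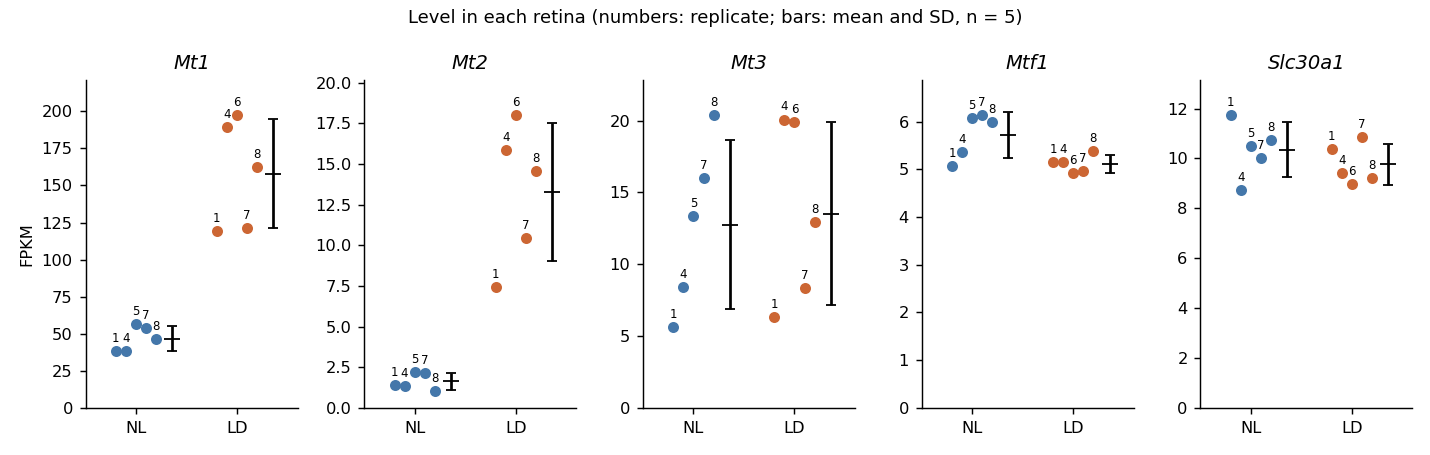
FPKM of each gene in each retina, with the y axis from 0 in each panel; points carry the replicate number, blue is NL and orange LD, and bars give the mean and SD of 5 retinas. The LD retinas lie above all NL retinas for *Mt1* and *Mt2*, and the groups overlap for *Mt3*, *Mtf1* and *Slc30a1*.

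The makeup of the metallothionein transcripts differed between the groups as well as their amount. Within a retina, the ratio of *Mt2* to *Mt1* was 0.0375, 0.0354, 0.0387, 0.0403 and 0.0228 in NL and 0.0624, 0.0836, 0.0912, 0.0863 and 0.0900 in LD, in the order above. Every LD retina had a higher share of *Mt2* than every NL retina, and LD-1 was the lowest LD retina. The mean log2 ratio went from −4.87 ± 0.34 to −3.61 ± 0.22 (SD, n = 5 each), a difference of 1.26 (SE 0.18) or 2.39-fold. The difference was 0.67 with a pseudocount of 1 FPKM, which weighs on the low NL levels of *Mt2*.

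The ratio of *Mt3* to *Mt1* was 0.148, 0.219, 0.237, 0.298 and 0.440 in NL and 0.0528, 0.106, 0.101, 0.0690 and 0.0798 in LD. Its log2 value fell by 1.67 (SE 0.32), from −1.99 ± 0.58 to −3.66 ± 0.41, without overlap. The ratio of *Mt3* to *Mt2* was 3.95, 6.20, 6.13, 7.40 and 19.3 in NL, where *Mt3* exceeded *Mt2* in each retina, and 0.845, 1.27, 1.11, 0.800 and 0.887 in LD. The closeness of both genes in LD depends on the deposited gene lengths. With spliced lengths *Mt3* was above *Mt2* in 5 of 5 LD retinas, with means of 26.9 and 15.3 FPKM. The log2 ratio of *Mt3* to *Mt2* fell by 2.93 (SE 0.40), from 2.88 ± 0.85 to −0.05 ± 0.28. For each of the 3 ratios the exact two-sided permutation p was 0.00794, and it remained 0.00794 after Benjamini-Hochberg adjustment over the 3. With the 3 closest pairs of retinas averaged, which left 4 NL and 3 LD values, the ratio of *Mt3* to *Mt1* had an adjusted permutation p of 0.0571.

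**Figure D3:**
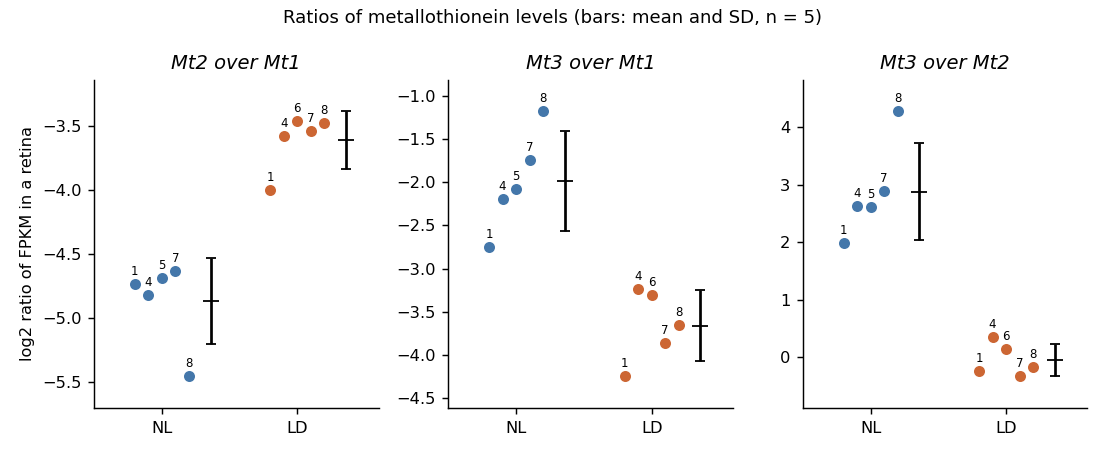
Log2 ratio of FPKM of a pair of metallothionein genes in each retina, for *Mt2* over *Mt1*, *Mt3* over *Mt1* and *Mt3* over *Mt2*; points carry the replicate number, and bars give the mean and SD of 5 NL (blue) and 5 LD (orange) retinas. The groups do not overlap in any panel, the *Mt2* share being higher and the *Mt3* share lower in LD.

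*Mtf1* (ENSMUSG00000028890, chr4:124802104-124849800, plus strand), the zinc sensor of the pathway, did not pass the limits. Its levels were 5.07, 5.35, 6.08, 6.14 and 5.99 FPKM in the NL retinas and 5.16, 5.14, 4.91, 4.97 and 5.38 FPKM in the LD retinas. LD-6 and LD-7 lay below every NL retina, and the other LD retinas lay within the NL range. The means were 5.73 ± 0.483 and 5.11 ± 0.184 FPKM (SD, n = 5 each), on 929 to 1377 reads. The log2 fold change was −0.16 (SE 0.07, limma p = 0.0357, adjusted p = 0.102), or 0.897-fold with a 95% interval of 0.811 to 0.991, and the exact permutation p was 0.0556. The size of this difference depended on the scaling. Without the factor that scales each retina it was −0.03 (limma adjusted p = 0.799). With every retina scaled to the same total FPKM (TPM) it was −0.06 (0.579). The median of all genes then stood at 0.11 and 0.08, against −0.01 in the main fit.

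*Slc30a1* (ENSMUSG00000037434, chr1:191906767-191913247, plus strand), the exporter of the plasma membrane, had levels of 11.7, 8.72, 10.5, 10.03 and 10.7 FPKM in the NL retinas and 10.4, 9.40, 8.96, 10.9 and 9.22 FPKM in the LD retinas. All LD values lay inside the NL range. The mean was 10.4 ± 1.11 FPKM in NL and 9.77 ± 0.823 FPKM in LD (SD, n = 5 each), on 971 to 1454 reads. The log2 fold change was −0.08 (SE 0.08, limma adjusted p = 0.530) and the exact permutation p was 0.373. The 95% interval of 0.833- to 1.07-fold leaves out a rise of the size of that in *Mt1* or *Mt2*. Without the factor that scales each retina, its log2 fold change was 0.05, while the median of all genes moved from −0.01 to 0.11.

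*Mtf1* overlaps *1110065P20Rik* on the other strand (log2 fold change 0.01, limma adjusted p = 0.949), and *Slc30a1* overlaps the antisense gene *1700034H15Rik* (0.07, adjusted p = 0.866). The overlaps span 721 and 761 bases. *1110065P20Rik* had 417 to 557 reads in NL and 403 to 599 in LD, and *1700034H15Rik* 100 to 226 and 108 to 250. *Mtf1* also holds the rRNA gene *n-R5s192*, with 0 to 5 reads in NL and 0 to 6 in LD. As for *Mt2*, reads of these overlaps cannot be told apart. Counting the genes without overlap between the groups, 2 of the 5 had every LD retina above every NL retina, against 11.8% of all genes tested, and 0 of the 5 had every LD retina below, against 10.6%.

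In the order of levels per length, NL retinas held *Mt1* first, followed by *Mt3* and *Slc30a1*, whose ranges overlapped with *Mt3* higher in 3 of 5 retinas, and then *Mtf1* and *Mt2*, each below the one before in 5 of 5 retinas without overlap. In LD retinas *Mt1* was again first. *Mt3*, *Mt2* and *Slc30a1* followed with overlapping ranges, *Mt3* exceeding *Mt2* in 2 of 5 retinas and *Mt2* exceeding *Slc30a1* in 3 of 5, and *Mtf1* came last. *Mt2* thus went from the lowest of the 5 genes, at 1.64 FPKM, to the level of *Mt3* and *Slc30a1*. The table divides *Mt1* by a length of 1246 bases and *Mt3* by 1066, where the transcripts with the most exons in GENCODE have spliced lengths of 549 and 536 bases. Other *Mt1* transcripts there, with fewer exons, have 633 and 1085 bases. With the lengths of the transcripts with the most exons, a choice made after the values were seen, *Mt1* had a mean of 106 ± 19.0 FPKM in NL and 359 ± 83.5 FPKM in LD, *Mt3* 25.4 ± 11.7 and 26.9 ± 12.7, and *Mt2* 1.88 and 15.3. The order of the means was the same, but *Mt3* was then above *Mt2* in 5 of 5 LD retinas.

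The genes whose profile over the 10 retinas was nearest to each of the 5 were sought among 12427 protein-coding genes, by the root mean square difference of log2(FPKM + 0.1) after each gene was centred on its own mean. Nearest to *Mt1* were *Rras* (0.116), *Gadd45g* (0.148) and *Met* (0.180). Nearest to *Mt2* were *Socs1* (0.326), *Helz2* (0.330) and *Herc6* (0.332), at a greater distance. Nearest to *Mt3*, at distances like those of *Mt2* or greater, were *Kirrel2* (0.339), *Pygl* (0.380) and *Galm* (0.418). The profiles of *Mtf1* and *Slc30a1* varied little, with *Rnf41* (0.0413), *Ints6l* (0.0427) and *Cyth1* (0.0451) nearest to the first and *Bcdin3d* (0.0319), *Zfp235* (0.0496) and *Gtpbp8* (0.0554) to the second. These distances are descriptions over the 10 retinas, among which 3 pairs were much closer to each other than the other pairs of a group.

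Related genes were grouped into 7 lists, and outside the 5 genes 11 of 56 tested were called. At the weaker limit of an adjusted p under 0.05 with no minimum fold change, 14.5% of all genes were higher and 13.4% lower after LD, and the median log2 fold change of all genes was −0.01. Of the zinc exporters of the ZnT family, 9 of 10 were tested and 0 were called, and their log2 fold changes ran from −0.17 to 0.37 with a median of −0.06. *Slc30a3*, the transporter of synaptic vesicles, had the value 0.37 (limma adjusted p = 0.0623), and *Slc30a5*, of the secretory pathway, −0.17 (0.0422). *Slc30a7* had 0.16 (0.196) and *Slc30a2* −0.09 (0.845).

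Of the 14 zinc importers of the ZIP family, 1 was called, and 6 were higher and 1 lower at the weaker limit, with a median of 0.25. The called gene was *Slc39a1* (ZIP1), an importer of the plasma membrane, which rose from 12.3 ± 1.41 FPKM to 29.0 ± 4.53 FPKM (SD, n = 5 each; log2 fold change 1.23, SE 0.11, limma adjusted p = 2.00e-05). Its NL retinas ran from 11.1 to 14.7 FPKM and its LD retinas from 24.4 to 35.1 FPKM, without overlap. *Slc39a8* (ZIP8) had a log2 fold change of 0.63 (limma adjusted p = 0.0296), *Slc39a7* of the endoplasmic reticulum 0.45 (0.0170), and *Slc39a12* −0.51 (0.125). *Slc39a10*, a gene that MTF-1 is known to repress in zinc excess, had a log2 fold change of 0.43 (1.35-fold, limma adjusted p = 9.54e-05), under the fold limit.

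Of 7 other reported targets of MTF-1, 1 was called and 4 were higher and 1 lower at the weaker limit, with a median of 0.31. *Slc39a10*, counted above among the ZIP genes, is also 1 of these 4. As MTF-1 is known to repress it, a higher level does not mean the same for every gene of this list. *Pgf*, placental growth factor, rose from 0.313 ± 0.0805 to 0.897 ± 0.208 FPKM (SD, n = 5 each; log2 fold change 1.27, SE 0.20, limma adjusted p = 8.91e-04). This call was lost with a pseudocount of 1 FPKM, with the closest pairs averaged, in 4 against 4 retinas with a replicate block and with a filter at 1 FPKM, under which it was not tested. *Csrp1*, a LIM domain protein, had 0.69 (limma adjusted p = 0.0382) and *Ndrg1*, a stress-response gene, −0.67 (6.22e-05), both under the fold limit.

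Metallothioneins also bind copper, and of 10 tested genes of copper handling 1 was called higher and 1 lower, with a median log2 fold change of −0.15. *Cp*, which encodes the copper ferroxidase ceruloplasmin, rose from 16.2 ± 7.02 to 98.6 ± 21.6 FPKM (SD, n = 5 each; log2 fold change 2.66, SE 0.25, limma adjusted p = 3.18e-05). *Atp7b*, the copper pump of the secretory pathway, fell from 4.25 ± 0.714 to 1.38 ± 0.476 FPKM (log2 −1.61, SE 0.22, limma adjusted p = 3.72e-04). *Slc31a2* had −0.67 (0.00359) and the copper-binding *Commd1* −0.29 (0.0242).

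The remaining lists hold genes of 2 other known inputs to *Mt1* and *Mt2*, whose part in these data was not tested. Of 8 glucocorticoid-responsive genes 0 were called higher and 1 lower, their log2 fold changes ran from −1.22 to −0.01, and the median was −0.24. *Sgk1*, a kinase gene, fell from 68.6 ± 16.7 to 29.0 ± 5.50 FPKM (SD, n = 5 each; log2 −1.22, SE 0.17, limma adjusted p = 4.34e-04), and this call was lost with the closest pairs averaged and with the replicate block. The receptor gene *Nr3c1* had −0.46 (limma adjusted p = 3.97e-04), and *Dusp1* −0.30 (0.184), *Klf9* −0.25 (0.00367). *Per1* had −0.23 (0.0446), *Zbtb16* −0.17 (0.534), *Fkbp5* −0.02 (0.914) and *Tsc22d3* −0.01 (0.925). At the weaker limit 0 genes of this list were higher and 4 lower.

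Of 10 tested genes of gp130 and STAT3 signalling, 6 were called higher and 0 lower. Their log2 fold changes ran from −0.13 to 5.21, with a median of 2.32. The ligand gene *Lif* had a log2 fold change of 4.50, the receptor gene *Osmr* rose from 1.02 to 8.12 FPKM (2.89, limma adjusted p = 2.12e-06), and *Stat3* itself rose from 12.3 to 44.1 FPKM (1.85, 1.25e-06). The feedback inhibitor *Socs3* rose from 2.12 to 51.0 FPKM (4.46, 3.21e-07), *Junb* from 12.4 to 87.2 FPKM (2.79, 7.48e-08) and *Bcl3* from 0.448 to 21.4 FPKM (5.21, 3.13e-06). *Il6st*, the gene of gp130, had a fold change of 1.99 (limma adjusted p = 3.48e-07), just under the fold limit. The others not called were the receptor gene *Lifr* (log2 fold change −0.13, limma adjusted p = 0.602), the kinase gene *Jak1* (−0.07, 0.0928) and *Cntf* (0.67, 0.209). *Cntf* had 1 to 13 reads per retina. *Bcl3* overlaps antisense genes and *Stat3* the neighbouring *Stat5a*.

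**Figure D4:**
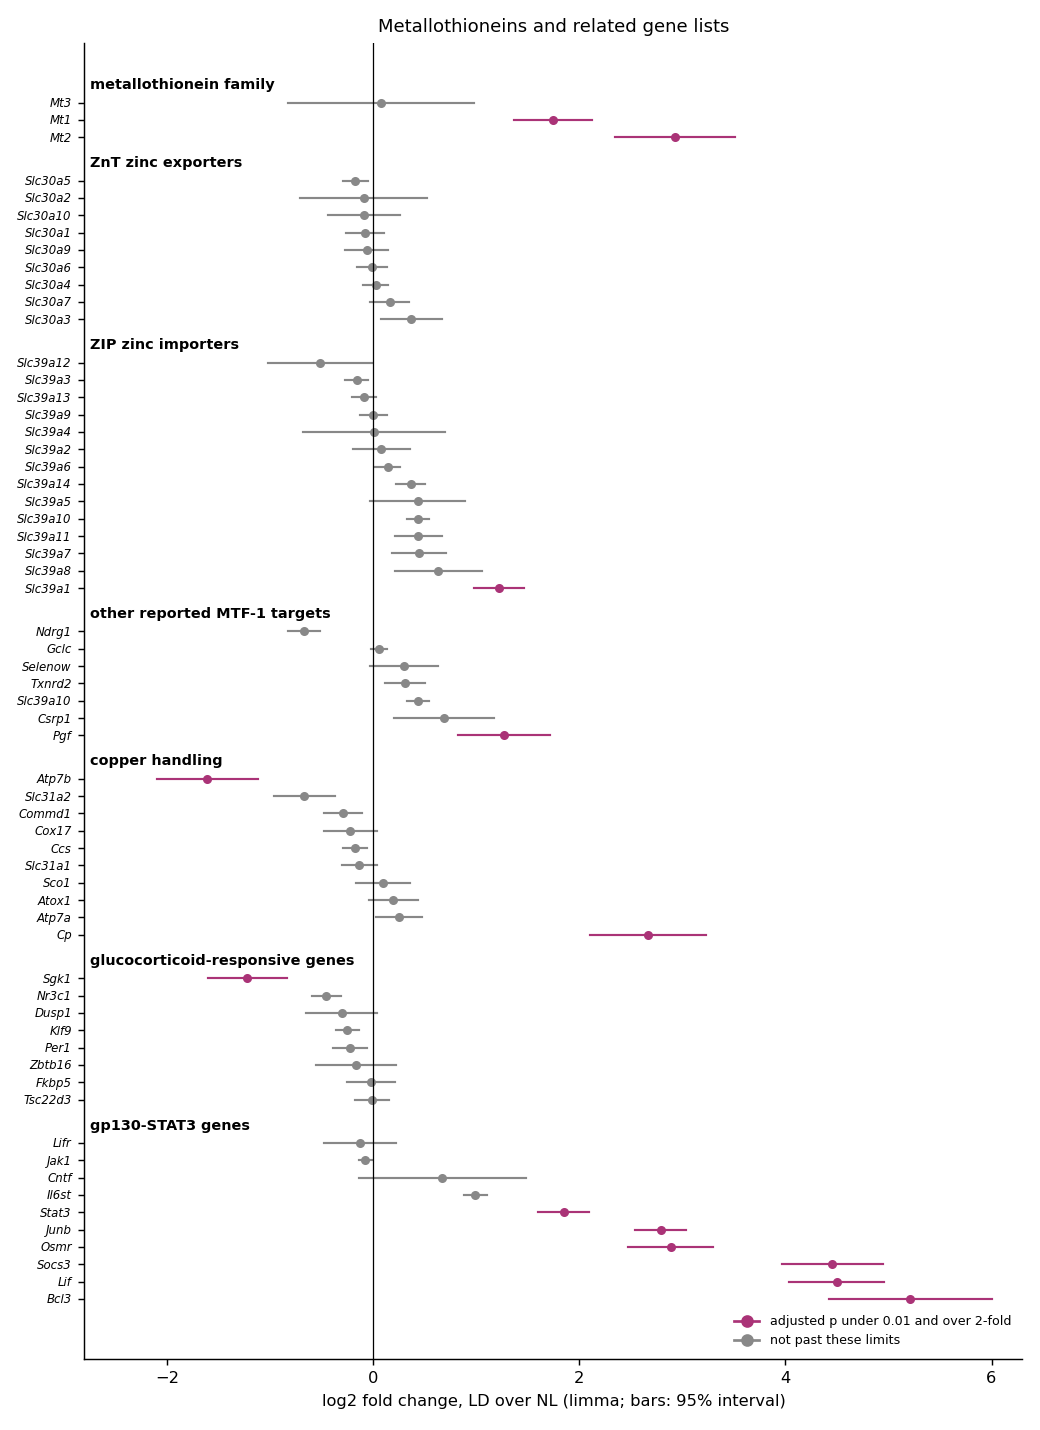
Log2 fold change of LD over NL for each tested gene of the metallothionein family and 6 related lists, as points with 95% intervals (limma, 5 against 5 retinas); purple marks an adjusted p under 0.01 with a change of over 2-fold. *Mt1* and *Mt2* stand at 1.75 and 2.93, the ZnT genes lie between −0.17 and 0.37, and the gp130-STAT3 genes reach 5.21.

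Markers of the cell types that could hold these transcripts were followed too. All 8 rod markers fell, and their summed level went from 8068 to 9881 FPKM in NL retinas to 1192 to 2409 FPKM in LD retinas. In bulk retina, fewer cells of a type and less RNA per cell cannot be told apart. Of 8 Müller glia markers 0 were higher and 1, *Glul*, lower, with sums of 1073 to 1310 and 524 to 741 FPKM. *Glul* alone went from 711 to 165 FPKM, and at the weaker limit 2 of the markers were higher, *Sox9* (log2 0.79, limma adjusted p = 0.00248) and *Slc1a3* (0.50, 0.0109), and 2 lower, *Glul* and *Car14* (−0.86, 0.00256). Of 5 astrocyte markers 1 was higher, *Gfap*, with sums of 147 to 161 and 198 to 255 FPKM. *Gfap* alone went from 11.4 to 98.7 FPKM, while *Aldoc* had a log2 fold change of −0.20 (limma adjusted p = 0.0725) and *Slc1a2* −0.27 (0.0427). *Pax2* had 0.36 (0.354) and *Gja1* 0.37 (0.661). After a longer light exposure in mice of another strain, the paper reports GFAP in Müller glia too. The rise of *Gfap* can therefore not be assigned to astrocytes in bulk retina. Of 8 microglia and myeloid markers 5 were higher, with sums of 10.2 to 13.2 and 16.7 to 33.1 FPKM. The myeloid count of 5 was 3 without NL-5, without NL-7, with a filter at 1 FPKM or in 4 against 4 retinas, 2 with the closest pairs averaged, and 1 with a pseudocount of 1 FPKM or with the replicate block. None of the 10 pigment epithelium markers (56.5 to 169 and 66.3 to 129 FPKM), 6 endothelial markers (33.5 to 44.4 and 49.0 to 82.7 FPKM) or 8 ganglion and amacrine cell markers (254 to 288 and 231 to 270 FPKM) were called, and no marker of these lists was at 0 in every retina. LD-1 and LD-7, one of the 3 closest pairs and the LD retinas with the lowest *Mt1* and *Mt2*, had a higher myeloid sum than the other LD retinas (30.1 to 33.1 against 16.7 to 22.7 FPKM). Their sums were lower for pigment epithelium (66.3 to 83.8 against 110.0 to 129 FPKM), endothelial (49.0 to 49.4 against 52.0 to 82.7 FPKM) and ganglion and amacrine cell markers (231 to 241 against 265 to 270 FPKM), and overlapped for the other marker lists. The part of these cell types and of the related lists in the rise of *Mt1* and *Mt2* was not tested.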

How the data were processed

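RNA-seq was done on 10 retinas, grouped by their labels. Per the labels and the paper, RNA was extracted with TRIzol, libraries were made with a TruSeq kit, and paired reads of 150 bases were normalized by a company. The submitters' processing notes name Bowtie2 2.0.6, TopHat2 2.0.9 and the build mm8, whereas the positions in the table are those of GRCm38. The counting program, its use of strand and the annotation release are not given in the sources used here. The values deposited by the authors are FPKM. Multiplied by gene length they gave whole reads for 100% of the values (within 0.01 of a read), and each retina had been scaled by a factor of 0.951 to 0.968 (NL) or 1.041 to 1.069 (LD).

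Genes reaching 0.1 FPKM in 5 or more retinas were tested as log2(FPKM + 0.1) with limma 3.58.1 in R 4.3.3 (intensity trend, no covariate). Fold changes on this scale understate those of low genes. Ratios were tested by exact two-sided permutation. The floor of 3 reads covers counting error only. On data simulated for LD against NL with 24453 genes, 184 of 200 genes changed 3-fold were recovered, with 2 false calls. The changed genes were drawn only from those above a minimum mean of reads. All genes had the same dispersion and the simulated retinas were independent. The recovery therefore does not carry over to genes of few reads or wide spread, nor to the closest pairs. Promoter sequences came from RefSeq.

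The 5 genes and all lists were chosen with earlier results of these data known. The text also names every called gene of a related list, filled up to 4 with the largest fold changes, the neighbours of the metallothionein cluster and the 3 nearest profiles per gene. *Il6st*, *Lifr*, *Jak1*, *Cntf*, *Fkbp5*, *Tsc22d3*, *Per1*, *Zbtb16*, the marker genes and overlapping genes were named after their values were seen.

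The paper calls the retinas biological replicates, but the labels do not say that they came from separate mice, so p-values measure the spread between these samples. For 3 of 20 pairs of retinas of a group (LD-4 and LD-6, NL-5 and NL-7, LD-1 and LD-7) the chi-square per gene between their reads was 2.65 to 3.65, and for the other 17 it was 12.2 to 43.4. All were kept as separate samples. Alternatives covered pseudocounts, filters, scalings, limma-voom on the recovered reads, single retinas left out, the closest pairs averaged and a replicate block.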

Additional observations from a re-analysis of the deposited data

Results flagged for a closer look

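The values of the 5 genes and the ratios in each group of 5 retinas were checked for a single retina far from the others (Dixon's 95% limit), over 16 groups, of which chance alone would mark about 0.8. There were 3 such values. The ratio of *Mt2* to *Mt1* was 0.0228 in NL-8, below 0.0354 to 0.0403 in the other NL retinas, and 0.0624 in LD-1, below 0.0836 to 0.0912 in the other LD retinas. The ratio of *Mt3* to *Mt2* was 19.3 in NL-8, above 3.95 to 7.40 in the other NL retinas. NL-8 had the lowest *Mt2* and the highest *Mt3* of the NL retinas and was the deepest library, with 26832535 reads. Without NL-8 the log2 differences of LD minus NL were 1.11 for *Mt2* over *Mt1*, −1.47 for *Mt3* over *Mt1* and −2.58 for *Mt3* over *Mt2*, each in the same direction as with it.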

How the results depend on the processing

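*Mt1* and *Mt2* were called under all 23 alternatives, with log2 fold changes of 1.66 to 1.88 (limma adjusted p 7.35e-06 to 0.00436) and 2.40 to 3.12 (1.27e-05 to 0.00386). *Mt3*, *Mtf1* and *Slc30a1* were called under none of them. Leaving out single retinas gave log2 values of −0.18 to 0.31 for *Mt3*, and the 4 against 4 retinas with shared numbers gave −0.046 with and without a replicate block. *Slc30a1* had 0.023 as TPM and 0.052 without the factor per retina. *Mtf1* ran from −0.20 to −0.03, with the lowest limma adjusted p, 0.0385, without NL-1 and the highest, 0.799, without the factor per retina. The causes were not tested.

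The 1595 called genes became 816 with a pseudocount of 1 FPKM, 808 with the replicate block in 4 against 4 retinas (1182 in these retinas without the block) and 6818 at an adjusted p under 0.05 with no minimum fold change, and under this last rule 28 genes of the related lists were called in place of 11. Retinas with the same number were no more alike than others (correlation of deviations −0.089 to 0.066 over 4 pairs, against −0.071 to 0.108 for unlike numbers). These weak correlations cannot tell whether shared numbers mark paired retinas. With the replicate block the log2 fold change was 1.73 for *Mt1* and 2.91 for *Mt2*. The difference in the ratio of *Mt3* to *Mt1* was −1.64 with the closest pairs averaged (adjusted permutation p = 0.0571, 4 against 3 values, range over 15 alternatives 0.00794 to 0.0571). Lengths of the spliced transcripts with the most exons, added after the values were seen, moved the mean levels of *Mt1*, *Mt3* and *Mtf1* and left the order of means. The depth of *Mt2* in NL, 16 to 27 reads, limits its fold change, and that of *Mt4* allows no statement.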
